A study of Bos taurus with 10 samples.

Results

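The 76 genes described here encode proteins of the mitochondrial ribosome in cattle. They are every gene of the deposited table whose symbol begins with MRPL or MRPS followed by a digit, 76 of 12674 genes in all, chosen by name and not by level. RNA was sequenced from the intramuscular fat (marbling fat, between muscle fibres) and the subcutaneous fat of 5 adult Angus-cross heifers, which gave 5 libraries per depot. No treatment was given, and all animals were adult females. The series asked what may lie behind the later and slower growth of marbling fat. Same-numbered libraries of the 2 depots are treated as coming from the same heifer.

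Mitochondria keep a ribosome of their own, which translates the few respiratory chain proteins encoded by mitochondrial DNA. Its RNA comes from the mitochondrial genome, while all of its proteins are made from nuclear genes, translated in the cytosol and imported. The large subunit forms peptide bonds and the small subunit decodes messenger RNA. Some of its proteins have counterparts in bacterial ribosomes and others are found only in mitochondria. Fat cells depend on mitochondria for much of the ATP that fat storage and turnover use. Of the 76 genes, 49 encode proteins of the large subunit and 26 proteins of the small one. MRPS30 and MRPS18A are counted with the large subunit, where their proteins sit despite the names. The remaining gene, MRPS36, carries a ribosomal name but encodes a component of the oxoglutarate dehydrogenase complex. Bacterial counterparts are known for 43 members, and 32 are specific to mitochondria.

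Levels are given as CPM, the usual count of reads relative to the scaled library total. Counts over the listed genes ranged from 9392739 to 14836808 in intramuscular and from 13776094 to 17685678 in subcutaneous libraries. The 76 genes took 32776 to 78181 of these counts in a library. Fat markers were present throughout: 13 of the 16 adipocyte markers were measured, and FABP4, the fatty acid carrier of fat cells, stood between 1332 and 8094 CPM. Striated muscle markers moved with the depot. Of 55 such genes 10 were measured, and their summed level was 393 to 1999 CPM in intramuscular and 25.9 to 45.7 CPM in subcutaneous libraries. NMRK2, LRRC30, ANO5 and CACNG6 were at 0 in all 5 subcutaneous libraries. Classical myofibre genes such as ACTA1 and CKM were not among the listed genes, so these sums do not measure the muscle content of a library. In bulk tissue, fewer cells of a type and less RNA per cell cannot be told apart.

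Subcutaneous replicates 3 and 5 stood apart from the other 8 libraries. Genes under 1000 bases took 9.67% and 10.2% of their counts, against 6.35 to 7.20% in the other 8 libraries. The counts of calls, the genes called and several others are therefore also given without this pair.

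The mitochondrial ribosomal genes varied more among subcutaneous libraries than between the depots. Their summed level was 3068, 2512, 2632, 3177 and 2962 CPM in intramuscular replicates 1 to 5. In subcutaneous replicates 1 to 5 it was 2580, 2843, 4374, 3394 and 5320 CPM. The depots overlapped: subcutaneous replicates 1 and 2 lay inside the intramuscular range, replicate 4 lay above it, and replicates 3 and 5 lay far above it. As means these are 2870 ± 286 against 3702 ± 1136 CPM (SD, n = 5 each), a difference smaller than the subcutaneous SD.

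The same pattern ran through the individual genes. For 65 of the 76 the highest library was subcutaneous replicate 3 or 5 (16 and 49 genes). For 37 of the 76 the lowest was subcutaneous replicate 1 or 2, and for 36 it was an intramuscular library. Both of replicates 3 and 5 lay above the other 8 libraries for 47 members, or 61.8%. Over all 12521 genes tested that share was 13.8%. These counts describe libraries singled out after their values were seen.

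**Figure D1:**
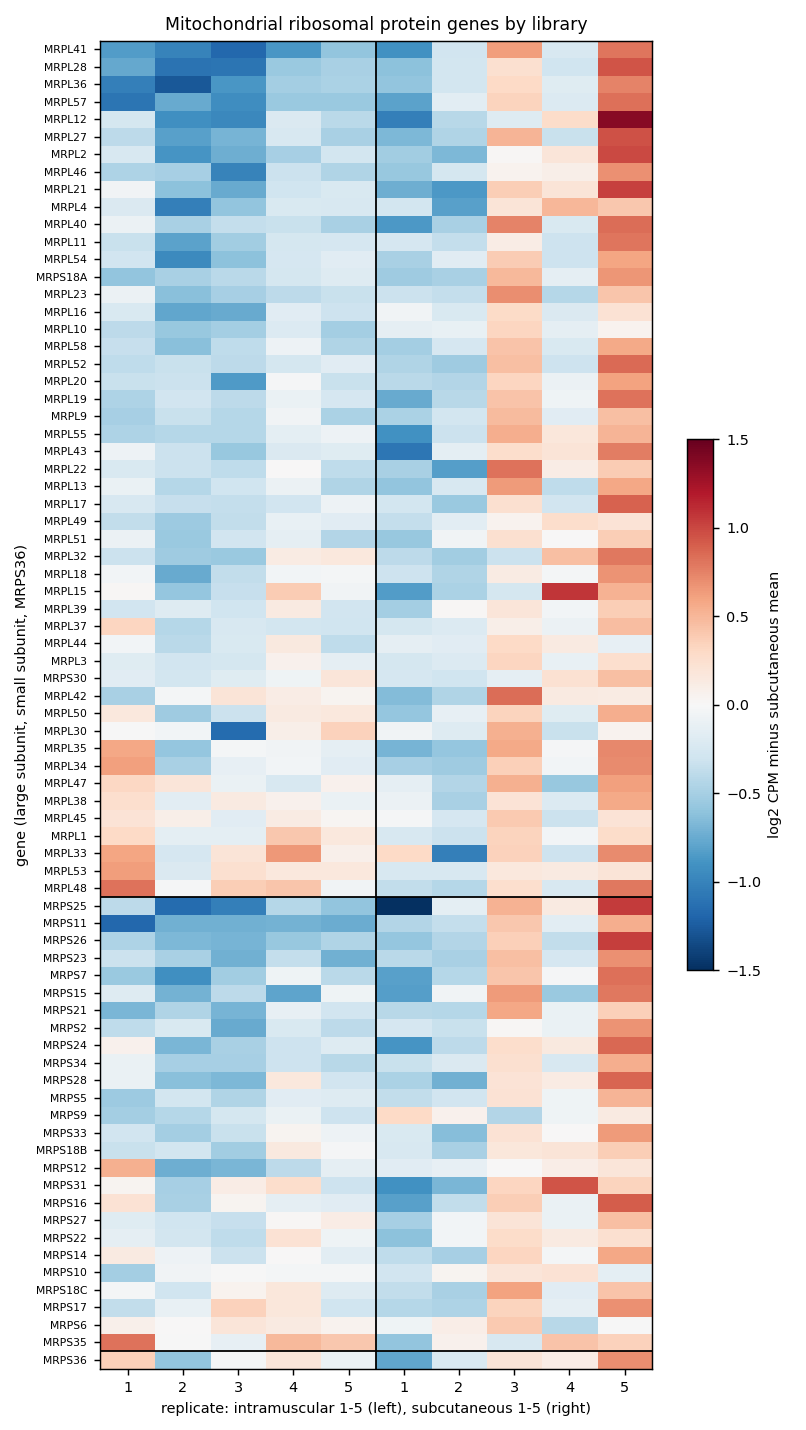
Log2 CPM of each of the 76 genes (rows, by subunit and then by depot difference) in each library (columns), relative to the gene's subcutaneous mean; colours saturate at 1.5. Subcutaneous replicates 3 and 5 are the highest library for 65 of the 76 genes, while subcutaneous replicate 1 is the lowest for 22.

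Within a depot, the members were less variable in intramuscular fat. The median SD of log2 CPM was 0.232 in intramuscular and 0.493 in subcutaneous libraries (n = 5 each). Over all genes tested these medians were 0.320 and 0.439. The subcutaneous SD was the larger for 69 of 76 members (90.8%, against 68.9% of all genes).

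Between depots, 4 of 76 members were lower in intramuscular fat and 0 higher, at an adjusted p of 0.05. The test was edgeR's quasi-likelihood test, two-sided, with p adjusted by Benjamini-Hochberg over 12521 genes. Its model held the depot alone, so the pairing by animal was not used. With the animal as a block, 5 members were lower and 0 higher, beside 6.96% of all genes lower. All 76 members passed the filter on low counts. Among all genes tested 5.49% were called lower and 6.75% higher, so 4 of 76 is close to the background for falls. At an unadjusted p under 0.05, 14 members were lower and 0 higher, beside 16.2% of all genes called lower by that rule. By DESeq2, 6 were lower and 0 higher, beside 9.24% of all genes lower. The authors' deposited table also lists 6 members as lower, beside 9.24% of its 12674 genes, and 0 as higher. The log2 fold change (intramuscular minus subcutaneous) was negative for 69 of 76 members, with a median of -0.36 and a range from -1.02 to 0.31. Over all genes tested 52.9% were negative and the median was -0.04.

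This shift was not seen without subcutaneous replicates 3 and 5, a pair singled out after its high values were seen. Leaving out the libraries highest for most members shrinks such a shift by construction, so it cannot show what the shift rests on. Without both, the median of the members was -0.01, 41 of 76 were negative, and 0 were called by edgeR in either direction (5 lower and 2 higher at an unadjusted p under 0.05). In that fit of fewer libraries 2.37% of all genes were called lower, down from 5.49%, so few calls among 76 genes would be made at the background rate. The median was -0.17 without subcutaneous replicate 5 alone, -0.29 without replicate 3 alone and -0.44 without replicate 1 alone. The count of 4 falls was 0 without intramuscular replicate 1, 2 or 3 or subcutaneous replicate 3 or 5 in turn. The share of all genes called lower in those fits was 2.93, 2.97, 2.09, 2.86 and 3.91%. It was 1 without intramuscular replicate 4 and 2 without intramuscular replicate 5 (3.98 and 3.54% of all genes), and 6 without subcutaneous replicate 1 (7.04%). The member count was 3 without subcutaneous replicate 2 and 5 without subcutaneous replicate 4 (4.21 and 5.23% of all genes). The share of all genes fell in each fit where the member count fell. It also fell without subcutaneous replicate 4, where the member count rose. By limma voom 1 member was lower, beside 4.74% of all genes.

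**Figure D2:**
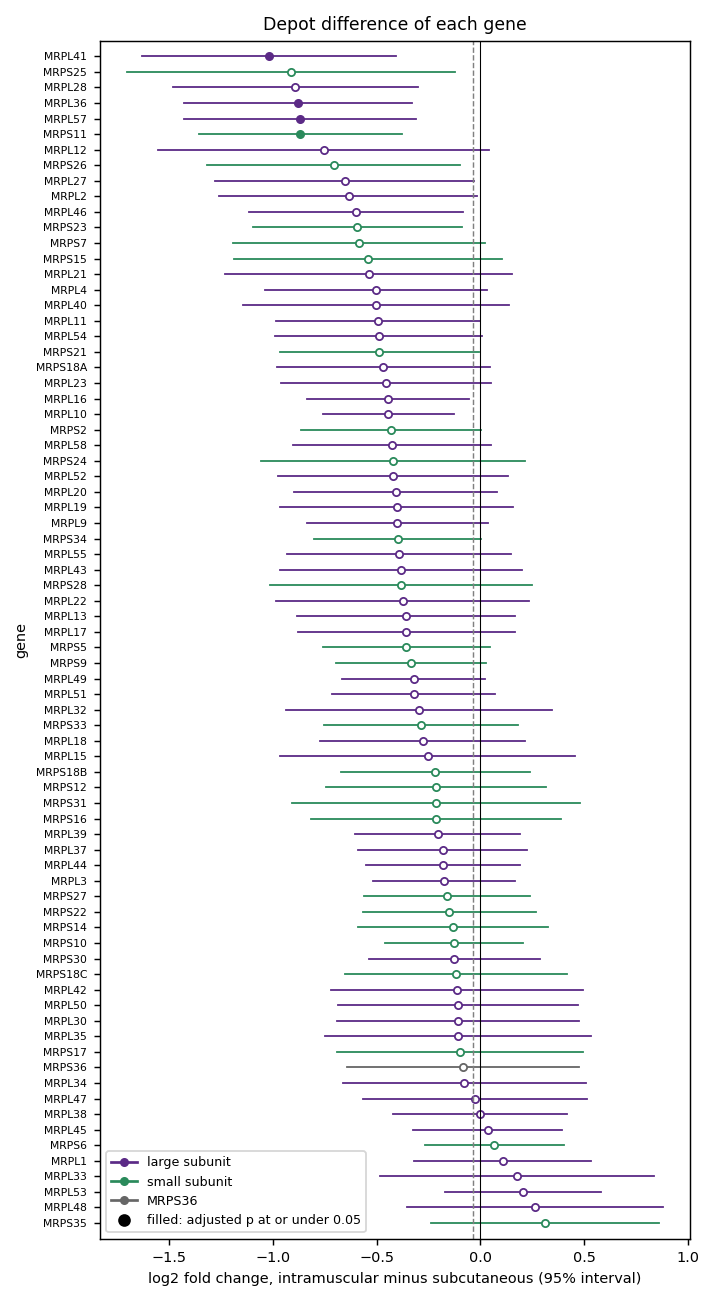
Log2 fold change of each of the 76 genes, intramuscular minus subcutaneous (points), with its 95% interval (lines) and the median of all genes tested (dashed line). The 4 filled points are the genes called lower, and 69 of the 76 estimates lie below 0.

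By animal, the direction differed. In pairs 1 to 5 the median of the members was 0.24, -0.14, -0.71, -0.01 and -0.77 (log2, intramuscular minus subcutaneous). Lower in the intramuscular library were 17, 48, 71, 43 and 72 of the 76 members. In pair 1 most members were thus higher in intramuscular fat. Among all genes tested between 48.8 and 53.4% were lower in each pair. Lower in all 5 pairs were 7 members, MRPS11, MRPL36, MRPL57, MRPL28, MRPL10, MRPL49 and MRPS21. Among all genes 15% were lower in all 5 pairs, more than the 7 of 76 here. MRPL49 and MRPS21 were named after their values were seen.

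MRPS11, a protein of the small subunit with a bacterial counterpart (ENSBTAG00000019831, chromosome 21, 19484255 to 19495138, plus strand in the deposited coordinates), had the smallest p of the family. It measured 10.9, 15.0, 15.0, 15.1 and 14.8 CPM in intramuscular replicates 1 to 5 and 18.3, 19.4, 32.9, 22.2 and 36.4 CPM in subcutaneous replicates 1 to 5. Every intramuscular value lay below every subcutaneous one. MRPL10, named below, was the only other member without overlap, against 5.04% of all genes with the intramuscular values wholly below. For 0 members did the intramuscular values lie wholly above, against 7.85% of all genes. MRPS11 fell by 0.87 ± 0.23 on the log2 scale (± SE, edgeR adjusted p = 0.0275). Without subcutaneous replicates 3 and 5 its log2 fold change was -0.50 and its edgeR adjusted p 0.123. Left out singly, intramuscular replicates 1, 2, 3 and 5 and subcutaneous replicates 3 and 5 each ended the call, with adjusted p of 0.0501 to 0.0663.

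MRPS11 overlaps MRPL46, a large subunit gene on the opposite strand (chromosome 21, 19474861 to 19484599), by 345 bases. No source used here states whether the counting used strand, so reads from the shared stretch cannot be assigned to either gene. MRPL46, named here for that overlap, measured 15.5 ± 2.55 CPM in intramuscular and 23.4 ± 8.00 CPM in subcutaneous fat (SD, n = 5), with an edgeR adjusted p of 0.113. In all, 15 members overlap another listed gene, 13 of them one on the opposite strand.

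The other members called lower were 3 genes of the large subunit, MRPL41, MRPL36 and MRPL57. MRPL41, found only in mitochondrial ribosomes (ENSBTAG00000039138, chromosome 11, 106520891 to 106521533), measured 62.2, 55.7, 49.0, 60.5 and 73.7 CPM in intramuscular replicates 1 to 5. In subcutaneous replicates 1 to 5 it measured 59.2, 91.3, 171, 94.3 and 194 CPM. Replicate 1 was the one subcutaneous library within the intramuscular range. MRPL41 fell by 1.02 ± 0.28 (log2, ± SE, edgeR adjusted p = 0.0355), or by 0.44 without subcutaneous replicates 3 and 5 (adjusted p = 0.179). Its call was lost without any one of intramuscular replicates 1 to 4 or subcutaneous replicates 3 and 5 (0.0647 to 0.0941).

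MRPL36, the counterpart of a very small zinc-binding protein of bacteria (ENSBTAG00000050317, chromosome 20, 70848636 to 70848938), measured 24.4, 20.7, 27.2, 35.1 and 35.8 CPM in intramuscular replicates 1 to 5. The subcutaneous values were 33.2, 41.3, 61.2, 44.1 and 84.0 CPM in the same order. Again only subcutaneous replicate 1 lay within the intramuscular range. MRPL36 fell by 0.88 ± 0.25 (log2, ± SE, edgeR adjusted p = 0.0419), and by 0.46 without subcutaneous replicates 3 and 5 (adjusted p = 0.194). The same 6 libraries as for MRPL41 each ended its call when left out (0.0503 to 0.0948).

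MRPL57, a short protein specific to mitochondria (ENSBTAG00000003315, chromosome 12, 35582808 to 35583891), measured 35.3, 44.7, 39.5, 51.2 and 51.4 CPM in intramuscular replicates 1 to 5. Its subcutaneous values were 43.4, 67.9, 94.9, 65.5 and 134 CPM. Subcutaneous replicate 5 was the highest and replicate 1 lay among the intramuscular values. MRPL57 fell by 0.87 ± 0.26 (log2, ± SE, edgeR adjusted p = 0.0462), or by 0.41 without subcutaneous replicates 3 and 5 (adjusted p = 0.218). The call held only in the fits without subcutaneous replicate 1 or 4, and the others gave 0.0548 to 0.109.

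MRPL28 and MRPL10 came next by p. MRPL28, a large subunit protein with a bacterial counterpart, measured 46.8, 37.0, 37.5, 54.1 and 56.9 CPM in intramuscular replicates 1 to 5. In subcutaneous fat it measured 52.0, 66.0, 94.7, 64.8 and 154 CPM. Its log2 fold change was -0.89 ± 0.27 (± SE), with an edgeR adjusted p of 0.0501 and of 0.0394 with the animal as a block. Without subcutaneous replicates 3 and 5 its log2 fold change was -0.39.

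MRPL10 anchors the stalk of the large subunit to which translation factors bind. It measured 44.0, 39.0, 40.6, 50.0 and 40.4 CPM in intramuscular replicates 1 to 5 and 52.7, 53.6, 72.0, 52.7 and 60.0 CPM in subcutaneous ones. The depots did not overlap, yet the difference was small. The log2 fold change was -0.44 ± 0.15 (± SE, edgeR adjusted p = 0.0630, and 0.0356 by DESeq2), and -0.31 without subcutaneous replicates 3 and 5. MRPL12, which forms the tip of that stalk and was named after its values were seen, measured 33.2 CPM in subcutaneous replicate 1 and 174 CPM in replicate 5. Its intramuscular values of 34.7 to 58.6 CPM lay within that span (edgeR adjusted p = 0.183). MRPS25, a small subunit protein specific to mitochondria and also named after its values were seen, had the widest span of the family. It measured 28.2, 16.5, 18.1, 27.3 and 24.5 CPM in intramuscular replicates 1 to 5 and 12.5, 33.3, 53.0, 40.7 and 76.7 CPM in subcutaneous ones. Both the lowest and the highest library were subcutaneous, 6.16-fold apart, and the log2 fold change of -0.91 did not pass the test (edgeR adjusted p = 0.114).

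**Figure D3:**
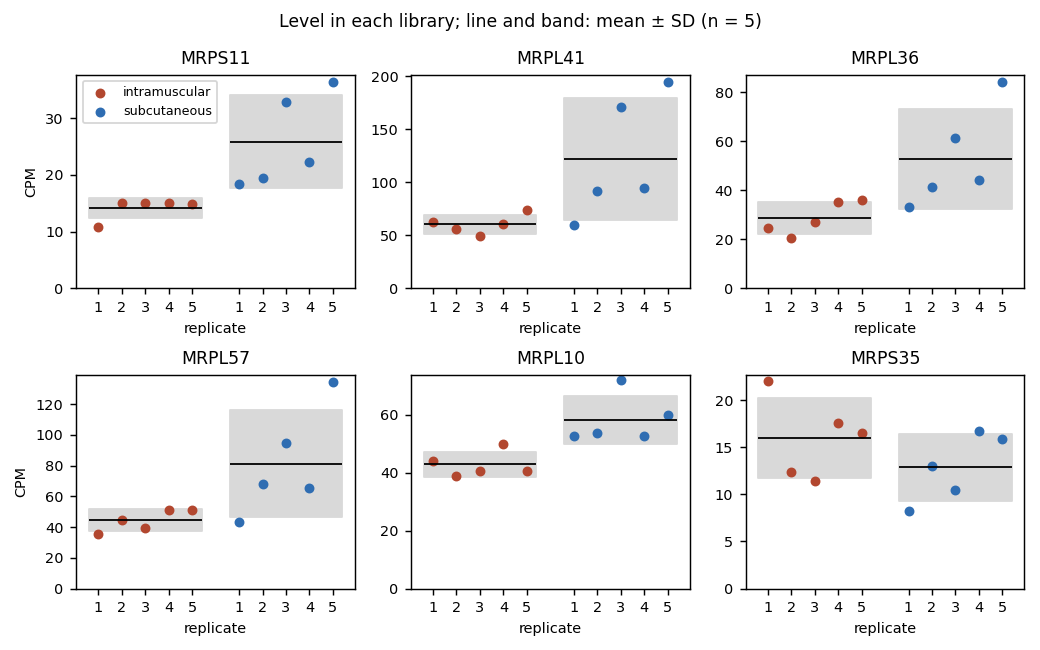
CPM of 6 members in each library (points), with the depot mean and SD (line and band, n = 5). In MRPS11 and MRPL10 the depots do not overlap, in MRPL41, MRPL36 and MRPL57 subcutaneous replicate 1 lies within the intramuscular range, and MRPS35 overlaps throughout.

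At the other end, 7 members had a positive log2 fold change and none of the 7 passed the test. MRPS35, a mitochondria-specific protein of the small subunit, had the smallest p among them. It measured 22.0, 12.4, 11.4, 17.6 and 16.5 CPM in intramuscular replicates 1 to 5 and 8.20, 13.1, 10.5, 16.7 and 15.9 CPM in subcutaneous ones. Its log2 fold change was 0.31, with a 95% interval from -0.24 to 0.86 (edgeR adjusted p = 0.431). MRPL53, MRPL48, MRPL33 and MRPL1 followed, at 0.21, 0.27, 0.18 and 0.11. MRPL48 belongs to the central protuberance of the large subunit, and MRPL1 to the mobile stalk near the exit site for transfer RNA. Their 95% intervals ran from -0.17 to 0.58, -0.35 to 0.88, -0.48 to 0.84 and -0.32 to 0.54. Differences of these sizes were not resolved with 5 libraries per depot. The values of MRPS35, MRPL53, MRPL48, MRPL33 and MRPL1 without subcutaneous replicates 3 and 5 were 0.33, 0.33, 0.69, 0.54 and 0.33, with edgeR adjusted p of 0.123 to 0.513.

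The 2 subunits had similar medians, as had the 2 evolutionary origins. Large subunit genes had 3 falls and 0 rises of 49 (median log2 fold change -0.37), and small subunit genes 1 and 0 of 26 (-0.31). Members with bacterial counterparts had 2 falls and 0 rises of 43 (median -0.37), and mitochondria-specific ones 2 and 0 of 32 (-0.30). Among all genes tested 5.49% fell and 6.75% rose, so counts this small cannot separate these groups. In subcutaneous replicate 5 the large and small subunit medians lay 0.59 and 0.55 above the subcutaneous mean (log2). In replicate 1 they lay at -0.49 and -0.42, so both subunits moved together from library to library. MRPS36, not a ribosomal subunit, had a log2 fold change of -0.08 and was also highest in subcutaneous replicate 5.

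Compared per kilobase of gene length, the members spanned a 19.1-fold range. MRPL41 and MRPL36 were the highest at 142 ± 79.0 and 134 ± 62.9 RPKM, that is CPM per kilobase of gene (SD over 10 libraries), and their values overlapped. MRPS33, a small subunit protein specific to mitochondria, came next at 97.3 ± 27.2, above MRPL9, MRPL27 and MRPL40 by less than their spread. MRPS17, counterpart of a bacterial small subunit protein, was lowest at 7.42 ± 2.16, followed by MRPL42 (8.38 ± 2.66) and MRPL48 (8.61 ± 2.76), which did not differ beyond their spread. The median member stood at 30.5 on this scale. Both of the most abundant genes were thus among the 4 that fell, and the 3 least abundant had edgeR adjusted p of 0.560 to 0.842.

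**Figure D4:**
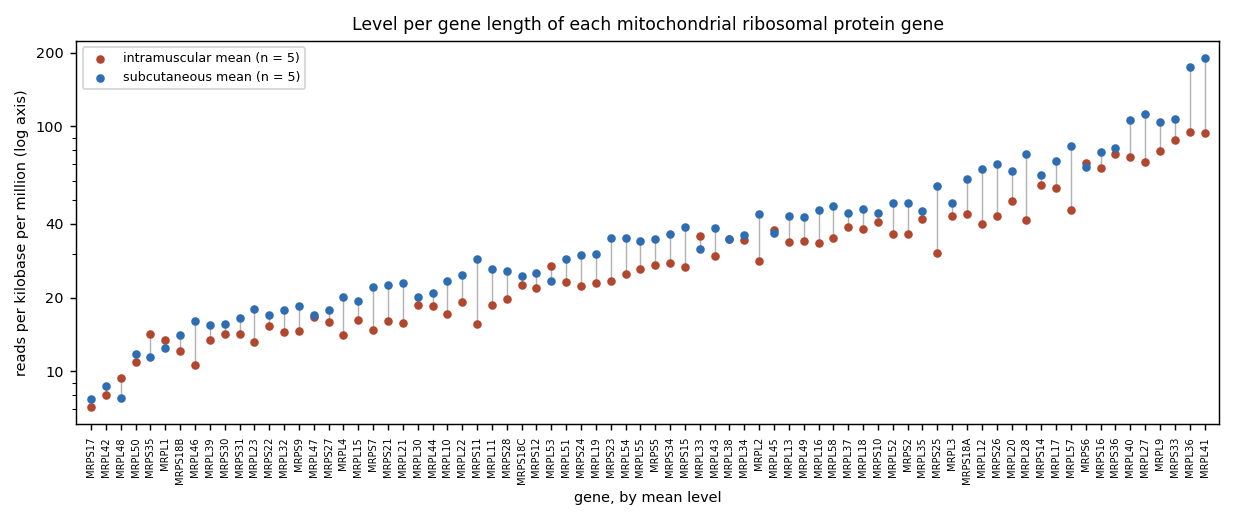
Mean level per gene length (RPKM, log axis) of each member in intramuscular and subcutaneous fat (n = 5 each), ordered by the mean of all 10 libraries. Levels run from 7.42 for MRPS17 to 142 for MRPL41.

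The mean level per length of large subunit genes, divided by that of small subunit genes, was 1.07 to 1.14 in intramuscular and 1.16 to 1.27 in subcutaneous libraries. Without MRPL41 and MRPL36 the ranges overlapped, at 0.992 to 1.06 and 1.01 to 1.10. With medians in place of means, the ratio was higher in intramuscular (1.27 to 1.41) than in subcutaneous libraries (1.13 to 1.21). The direction of this ratio therefore depended on the summary used.

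Several measures moved with the members across libraries. The median member lay 0.32 and 0.58 above the subcutaneous mean (log2) in subcutaneous replicates 3 and 5, and -0.46, -0.34 and -0.08 from it in replicates 1, 2 and 4. The 756 other genes under 1000 bases, with members, respiratory chain genes and cytosolic ribosomal genes left out, stood at 0.26 and 0.41 in replicates 3 and 5. The 11529 other genes of 1000 bases or more stood at 0.01 and -0.06. Of the members, 46 are at least 1000 bases long, and their medians in these libraries were 0.26 and 0.46. For the 30 shorter members they were 0.34 and 0.71. All 4 members called lower are among these 30 short genes, and 0 of the 46 longer ones were called. Among the other genes of those lengths, 54 of 756 and 625 of 11529 were called lower. At an unadjusted p under 0.05, 8 of the shorter and 6 of the longer members were lower. The latter include MRPL28 (1121 bases, edgeR adjusted p = 0.0501), so these few calls cannot show a division by length. MRPS11, MRPL41, MRPL36 and MRPL57 are 903, 643, 303 and 978 bases long in the deposited table. Both replicates lay above the other 8 libraries for 80% of the shorter and 50% of the longer members, beside 37.7% and 11% of the other genes of those lengths. Across the 76 members the log2 fold change was nearly unrelated to log2 gene length (Spearman's rho 0.08, a description across genes that share libraries), and its rho with the mean level was -0.32.

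Cell type markers did not all follow these libraries. The summed level of the adipocyte markers was 30220 and 38680 CPM in subcutaneous replicates 3 and 5, the highest of all libraries, against 23860 to 25470 CPM in the other subcutaneous ones. Intramuscular libraries ranged from 6933 to 24420 CPM. That sum was carried by a few genes, among them FABP4, THRSP and CIDEC. The median adipocyte marker stood at -0.07 in replicate 3 and 0.52 in replicate 5 (log2, relative to the subcutaneous mean), and 5 of the 13 had both libraries above the other 8. In replicate 3, LEP was the lowest of the depot at 596 CPM. Of the 13 measured adipocyte markers 0 rose and 2 fell by edgeR. At an unadjusted p under 0.05, 7 were lower and 0 higher, and 12 had a negative log2 fold change (median -0.81). Among all genes tested 6.75% rose and 5.49% fell, and 16.2% were lower at that unadjusted p. Other cell type lists moved with the depot as well. Nerve and Schwann cell markers had 6 rises and 1 fall of 8, and mural cell markers 3 rises and 0 falls of 7. Macrophage markers had 4 falls of 12, endothelial markers 4 of 13 and stromal markers 4 of 13, with 0 rises in each. Lymphocyte markers had 0 calls of 8 by edgeR, and also 0 at an unadjusted p under 0.05. The macrophage markers, 12 of 14 measured, summed to 206 CPM in subcutaneous replicate 3 and 1025 CPM in replicate 5, the lowest and the highest of that depot. Among intramuscular replicates 1 to 5 the median member stood at -0.22, -0.48, -0.38, -0.10 and -0.19. The measured striated muscle markers took 0.227, 0.0682, 0.130, 0.0398 and 0.0487% of counts in these libraries, which does not give their muscle content. The part of gene length and of cell content in the depot difference was not tested.

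Genes of the respiratory chain and of the cytosolic ribosome showed the same high libraries. For 72 nuclear genes of oxidative phosphorylation the median lay at 0.41 and 0.75 in subcutaneous replicates 3 and 5, and at -0.63 in replicate 1. Of these 72 genes 4 were lower in intramuscular fat and 0 higher (median log2 fold change -0.42), which is close to the 5.49% of all genes called lower. They were NDUFA10 and NDUFV1 of complex I and COX6A1 and COX8A of complex IV. NDUFA10 measured 193 ± 12.4 against 380.0 ± 122 CPM (SD, n = 5) and kept its call in all 10 fits that left out 1 library. Without subcutaneous replicates 3 and 5 it had an edgeR adjusted p of 0.0506, and 0 of the 72 were called. The count of 4 was 1 or 2 without any one of intramuscular replicates 1 to 4 or subcutaneous replicates 3 and 5, and 16 without subcutaneous replicate 1. For 88 cytosolic ribosomal protein genes the medians in subcutaneous replicates 3 and 5 were 0.30 and 0.64, and 1 rose and 1 fell (median log2 fold change -0.16). The share of genes with both of these libraries above the other 8 was 76.4% for the respiratory chain and 76.1% for the cytosolic ribosome, beside 61.8% for the mitochondrial one.

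**Figure D5:**
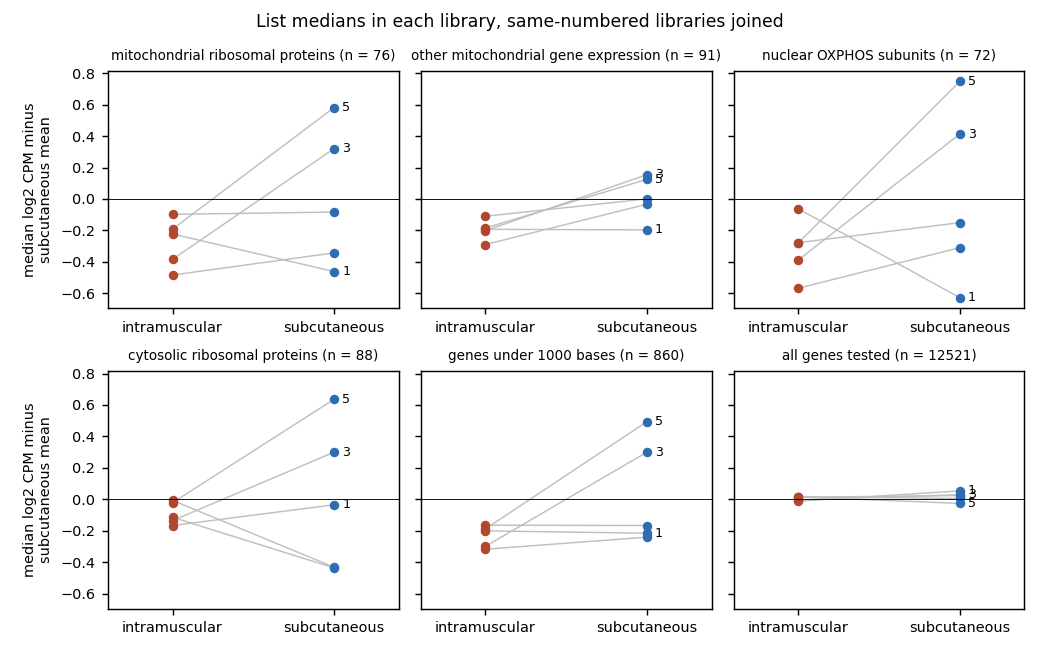
Median log2 CPM relative to the subcutaneous mean, for 6 sets of genes in each library (points), with same-numbered libraries joined and subcutaneous replicates 1, 3 and 5 labelled. Replicates 3 and 5 stand highest for mitochondrial ribosomal proteins (0.32 and 0.58), respiratory chain and cytosolic ribosomal genes and short genes, while the median of all genes tested stays near 0.

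Other genes of mitochondrial gene expression were taken from 6 lists. Of the 91 measured, 1 was higher and 2 lower, beside 6.75% and 5.49% of all genes. Without subcutaneous replicates 3 and 5 none was called by edgeR. With a single library left out there were 8 falls if it was subcutaneous replicate 1. There were 0 if it was replicate 3 of either depot, and 1 if it was any other intramuscular library or subcutaneous replicate 5. The share of all genes called lower in these fits was 7.04% without subcutaneous replicate 1, 2.09 and 2.86% without replicate 3 of each depot, and 2.93 to 3.98% in the rest. The rise was GFM2 and not PPARGC1A once intramuscular replicate 2 was left out, with an edgeR adjusted p of 0.0228. The 5 subunits of the mitochondrial ribosome under other names had 0 calls and a median log2 fold change of -0.36. AURKAIP1 measured 33.0 ± 8.46 against 50.0 ± 23.4 CPM, CHCHD1 22.5 ± 2.34 against 29.8 ± 10.0 CPM, and GADD45GIP1 31.4 ± 8.84 against 40.2 ± 18.2 CPM (SD, n = 5). DAP3, a GTP-binding protein of the small subunit, and PTCD3, a repeat protein of the same subunit, had log2 fold changes of -0.24 and 0.02.

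The 20 aminoacyl-tRNA synthetase and amidotransferase genes of mitochondria had 0 rises and 1 fall (median log2 fold change -0.30). VARS2, which charges valine transfer RNA, measured 30.8, 33.0, 28.5, 27.7 and 37.0 CPM in intramuscular replicates 1 to 5. In subcutaneous replicates 1 to 5 it measured 47.4, 52.7, 52.2, 40.1 and 44.6 CPM. The depots did not overlap, and subcutaneous replicates 3 and 5 were not the highest. VARS2 fell by 0.59 ± 0.15 (log2, ± SE, edgeR adjusted p = 0.0223). The fold change was -0.57 without subcutaneous replicates 3 and 5 (adjusted p = 0.0533). Without intramuscular replicate 3 or subcutaneous replicate 3 alone the adjusted p was 0.0638 and 0.0522. CARS2, SARS2 and GATB had log2 fold changes of -0.63, -0.42 and -0.45, with edgeR adjusted p of 0.0588, 0.113 and 0.142.

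Translation factors had 0 calls of 16 (median -0.24), with members on both sides of 0. GFM1, which moves the ribosome along the messenger RNA, measured 38.2 ± 7.41 against 55.5 ± 12.1 CPM (log2 fold change -0.54, edgeR adjusted p = 0.0831). GFM2, a related GTPase that takes the ribosome apart after translation, measured 39.2 ± 7.79 against 27.1 ± 1.74 CPM (0.53, adjusted p = 0.0597, and 0.0255 by DESeq2). The initiation factor MTIF2 and TACO1, an activator of the translation of a complex IV subunit, had log2 fold changes of 0.63 and 0.55. Ribosome assembly genes had 0 calls of 21 (median -0.33). MTG2, NGRN and ERAL1 had log2 fold changes of -0.67, -0.47 and -0.49, and NSUN4, a methyltransferase of ribosomal RNA, one of 0.90 (edgeR adjusted p of 0.0623 to 0.0898 for these 4).

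Among 19 genes of mitochondrial DNA upkeep and transcript processing 1 was lower and 0 higher (median -0.26). REXO2, a nuclease of very short RNAs, measured 89.7 ± 16.5 against 149 ± 45.0 CPM (SD, n = 5) and fell by 0.73 ± 0.22 (log2, ± SE, edgeR adjusted p = 0.0476). Its log2 fold change was -0.39 without subcutaneous replicates 3 and 5. The call held only in the fits without subcutaneous replicate 1 or 2. ELAC2, MGME1 and POLG2 had log2 fold changes of -0.51, -0.87 and -0.82, with edgeR adjusted p of 0.0604, 0.0951 and 0.102.

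The 10 measured regulators of mitochondrial biogenesis were the one of these 6 lists with a positive median, 0.15, with 1 rise and 0 falls. PPARGC1A, the coactivator PGC-1alpha that also drives oxidative genes of muscle, measured 7.68, 9.25, 7.24, 5.42 and 5.20 CPM in intramuscular replicates 1 to 5. In subcutaneous replicates 1 to 5 it measured 4.32, 3.89, 4.10, 1.82 and 2.18 CPM. The depots did not overlap. The 3 highest values came from the libraries with the most counts of the measured muscle markers, but in another order. PPARGC1A was highest in intramuscular replicate 2 and those markers in replicate 1. Over the 11 alternatives other than single left-out libraries, its log2 fold change ran from 0.023 to 1.27. Among these was a fit with those markers as a covariate, which resolved almost nothing. A part of muscle was otherwise not tested. PPARGC1A rose by 1.09 ± 0.33 (log2, ± SE, edgeR adjusted p = 0.0498). That call was lost on leaving out any single library but subcutaneous replicate 1 (0.0570 to 0.111), while the fold change stayed between 0.94 and 1.21. It was 1.06 without subcutaneous replicates 3 and 5 (adjusted p = 0.111). PPRC1 and HCFC1, which are coregulators, and NRF1, which binds promoters of nuclear genes for mitochondria, had log2 fold changes of 0.42, 0.39 and 0.41 (edgeR adjusted p of 0.199 to 0.522). Without subcutaneous replicates 3 and 5 the value for NRF1 was -0.03.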

How the data were processed

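Raw counts per gene and library were deposited by the authors, with 5 libraries per depot assigned by title. The submitters' processing notes name STAR 2.7.11a, Trimmomatic 0.39, DESeq2 1.42.0 and featureCounts 2.0.2. No build or strand setting is given in the sources used here. The deposited table also holds the authors' mean count per depot, a base mean (a size-factor-scaled signal), a log2 fold change, its standard error and Wald statistic (a score), and p-values.

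The depots were compared in edgeR 4.0.16 (R 4.3.3) by quasi-likelihood on all counts, with TMM scaling and filterByExpr, which kept 12521 genes and removed 153. Intervals are 95%. CPM came from the scaled libraries, log2 CPM used a prior count of 2, and RPKM used the deposited gene length. Alternatives were DESeq2 1.42.0, limma 3.58.1 voom, other scalings and filters, an animal block, a muscle covariate and left-out libraries.

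The members, gene lists and tests were chosen with earlier results of these data known. Leaving out subcutaneous replicates 3 and 5 together was chosen after seeing the data. Named genes were members called, the 5 of smallest p in each direction, those without overlap, the 3 highest and 3 lowest per length, the subunits under other names, and up to 4 genes of smallest p per list. Animals are paired because the design text says both depots came from the same 5 heifers. As a check, each pair's deviations from the 2 depot means were correlated over the tested genes, giving 0.102, 0.181, 0.176, 0.161 and 0.237. Each library correlated most with the same-numbered library of the other depot.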

Additional observations from a re-analysis of the deposited data

Results flagged for a closer look

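In 6 of 90 groups of 5 libraries examined, 1 library lay far from the other 4 by Dixon's 95% criterion. Chance alone flags about 1 group in 20. MRPS11 measured 10.9 CPM in intramuscular replicate 1, against 14.8 to 15.1 CPM in the other intramuscular libraries. GFM2 stood at 25.6 CPM in intramuscular replicate 2 (others 40.9 to 44.5 CPM), and TACO1 at 22.5 CPM in intramuscular replicate 1 (others 13.3 to 15.9 CPM). In intramuscular replicate 4, MGME1 was at 8.74 CPM (others 4.70 to 5.19 CPM) and PPRC1 at 58.4 CPM (others 41.8 to 46.6 CPM). ELAC2 reached 108 CPM in subcutaneous replicate 5, against 62.7 to 74.6 CPM in the rest of that depot.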

How the results depend on the processing

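The count of falls among the 76 members was 4, and 4, 4, 5 and 5 with RLE factors, upper quartile scaling, no filter and a minimum mean of 5 CPM. Of all genes 5.49% were lower in the main fit, and 4.98, 4.9, 5.51 and 6.69% in those. The count of member falls was 1 with limma voom and with total count scaling (4.74 and 2.64% of all genes lower). The counts of 4 and 5 lie near the share of all genes in their fit, and the counts of 1 lie below it. The member count was 0 with the muscle covariate, without intramuscular replicates 1 and 3, and without subcutaneous replicates 3 and 5. Without intramuscular replicates 1 and 3 only 0.531% of all genes were lower, so that 0 says nothing of the members. With the replicate block it was 5 (median -0.30, 6.96% of all genes lower), and that of MRPL28 was the one call of a member that changed. Falls with the block numbered 3 among other mitochondrial gene expression genes and 5 among respiratory chain genes. Total count scaling moved the median of all genes to 0.13 and left that of the members 0.30 below it, with 52 of 76 negative. With the muscle covariate 0 genes were lower and 1 higher among all 12521, so it resolved almost nothing. The median of the members in that fit was -0.47, with 59 of 76 negative, beside a median of 0.0042 over all genes. The median of the members was -0.011 without subcutaneous replicates 3 and 5, and between -0.44 and -0.17 with 1 library left out.

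With 1 library left out, falls numbered 0 to 6 among members, 0 to 8 among other mitochondrial gene expression genes (rises 0 to 1) and 1 to 16 among respiratory chain genes. For those other genes DESeq2 gave 6 falls and 3 rises, limma voom, RLE and upper quartile 1 fall each, total counts 0 falls and 2 rises, and the 5 CPM filter 2 rises. DESeq2 called 8 respiratory chain genes lower, beside 9.24% of all genes. Both sets had 0 calls either way with the muscle covariate, without intramuscular replicates 1 and 3, and without subcutaneous replicates 3 and 5.

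Signs changed for genes that were uncalled, except COX6A1 and COX8A. With total counts MRPS17 and MRPL42 were at 0.10 and 0.067. Without subcutaneous replicates 3 and 5, MRPS33, MRPS17, MRPL42, GADD45GIP1 and NRF1 were at 0.041, 0.31, 0.27, 0.20 and -0.034. With the muscle covariate MRPL53, MRPL48, MRPL33, MRPL42 and DAP3 were at -0.66, -1.09, -0.51, 0.31 and 0.86. In that fit GFM1, MTIF2, TACO1, GATB, MGME1, COX6A1 and COX8A were at 0.71, -0.59, -0.45, 0.97, 0.089, 0.14 and 0.47. With 1 library left out MRPL33 ran from -0.0105 to 0.37, MRPS17 from -0.22 to 0.11, MRPL42 from -0.25 to 0.15 and PTCD3 from -0.054 to 0.11. The causes of these changes were not tested.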
